A study of Mus musculus with 121 samples.

Results

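The genes described here are 9 cyclic nucleotide phosphodiesterases, Pde1a, Pde1b, Pde1c, Pde2a, Pde4b, Pde4d, Pde7b, Pde8b and Pde10a, found by an exact match of their symbols in a table of 24412 genes. All 9 were present and all 9 passed the filter on low counts in every comparison. The mice carry a conditional allele of Gdnf, the gene of a growth factor for dopamine neurons: Cre switches its transcript to a short untranslated end that lacks negative elements. Wild-type littermates (WT), carriers of 1 such allele (HET) and of 2 (HOM) were compared in prefrontal cortex (PFC), striatum (STR) and substantia nigra (SN), to ask which transcripts differ when endogenous Gdnf is raised. All animals were male on a 129Ola/ICR/C57bl6 mixed background.

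Libraries came from 2 models. In the Nestin-Cre model, Cre acts in the central nervous system from mid-gestation and WT mice also carried the Nestin-Cre transgene. Animals were 2 months old by the sample records, while the study's text gives 2 to 3 months for STR and SN. This model gave 8 WT, 6 HET and 4 HOM libraries of PFC, and 6 WT, 7 HET and 6 HOM libraries of STR and again of SN. In the AAV-Cre model, animals of every genotype received a Cre virus in both striata at 3 to 5 months and were 5 to 7 months old. This model gave 7 WT, 7 HET and 8 HOM libraries of PFC and of SN, and 7 of each genotype of STR. Each library was 1 brain region of 1 mouse: 56 libraries came from 21 Nestin-Cre mice and 65 from 22 AAV-Cre mice. Total counts ran from 9869584 to 26750905 per library with a median of 17885830. Age, Cre delivery, surgery and virus differ together between the models and cannot be told apart.

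Phosphodiesterases end cyclic nucleotide signals by hydrolysing cAMP, cGMP or both, and so set how long a signal from an adenylyl or guanylyl cyclase lasts. In the striatum, projection neurons respond to dopamine through D1 receptors, which raise cAMP, and D2 receptors, which lower it, and these neurons are known for high PDE10A and PDE1B. The families differ in what switches them on: calmodulin for PDE1, cGMP for PDE2, and phosphorylation by protein kinase A for the long forms of PDE4.

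Defining markers matched the labelled regions in WT mice. The cortical glutamate transporter gene Slc17a7 had a median of 1741 cpm (counts scaled to library size with edgeR) in Nestin-Cre PFC and 66.5 cpm in STR. The D1 receptor gene Drd1 had a median of 379 cpm in Nestin-Cre STR and 2.82 cpm in SN, and the dopamine transporter gene Slc6a3 had 1064 cpm in SN and 0.374 cpm in STR. In the AAV-Cre WT libraries the same medians were 1489 and 19.7 cpm for Slc17a7, 299.5 and 3.93 cpm for Drd1, and 1174 and 0.356 cpm for Slc6a3. The labels give 1 mouse different genotypes: its PFC library is N_PFC_WT_4575, while its STR library is N_STR_HOM_4575 and its SN library N_SN_HOM_4575.

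A pair of SN libraries stood apart in striatal markers. The index of 22 striatal projection neuron markers, their mean log2 cpm with 0.5 cpm added, was 6.05 in the Nestin-Cre HET library N_SN_HET_4566, where the group's median was 3.83. It was 5.40 in the AAV-Cre WT library A_SN_WT_3587, against a group median of 3.83. Drd1 reached 55.5 cpm and 26.4 cpm in these libraries. The summed level of the 22 markers was 2845 cpm in N_SN_HET_4566 and 1820.0 cpm in A_SN_WT_3587, with group medians of 714 and 757 cpm. For SN, the quasi-likelihood counts by genotype and the Pde10a differences are given with and without the library concerned, a choice made after seeing the data. The likelihood ratio test was run only with both libraries. Choroid plexus markers set other libraries apart, with summed levels of 18895 cpm in N_STR_HET_4566 and 20129 cpm in A_SN_HET_3676. Some AAV-Cre STR libraries also had high choroid plexus sums, such as 8223.5 cpm in A_STR_WT_3585. These libraries were kept, and the relation of choroid plexus markers to the members was not tested.

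Gdnf itself had few reads. In Nestin-Cre PFC it ran from 0.215 to 0.947 cpm with a median of 0.416 cpm in WT and from 0.134 to 0.924 cpm with a median of 0.372 cpm in HET, and the HOM libraries had 0.0935, 0.132, 0.146 and 0.649 cpm. It was highest in STR, where AAV-Cre WT libraries had 5.49 to 7.51 cpm (median 6.82), HET 6.43 to 9.54 cpm (median 7.53) and HOM 7.71 to 10.1 cpm (median 8.66). The AAV-Cre STR WT and HOM ranges did not overlap, a log2 difference of 0.40 ± 0.09 (standard error), with an edgeR adjusted p of 0.504. In Nestin-Cre STR the WT libraries had 3.95 to 7.75 cpm (median 6.24), HET 4.01 to 9.40 cpm (median 5.63) and HOM 5.74 to 9.89 cpm (median 6.93), and the ranges overlapped. The Gdnf level in PFC therefore does not check the genotype labels there. By qPCR the study reports raised striatal Gdnf mRNA in HET and HOM mice of both models. The counts here sum reads over the exons of the gene, while the switched transcript has a short untranslated end. What that switch does to these counts was not tested.

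The members lie on 8 chromosomes of the mm10 build, and no exon base of any member was shared with another gene of the table. Pde1b (Entrez 18574) spans chr15:103503034-103530056 on the plus strand, on the chromosome that also holds Gdnf at chr15:7810048-7837580. Pde10a (Entrez 23984) spans chr17:8526801-8986648 on the plus strand and Pde7b (Entrez 29863) spans chr10:20397052-20725078 on the minus strand. Pde4d and Pde8b are both on chromosome 13, at chr13:108654177-109955969 and chr13:95024105-95250336. Pde1a lies at chr2:79834453-80129412, Pde1c at chr6:56069804-56369634, Pde2a at chr7:101421691-101512829 and Pde4b at chr4:102254742-102607262.

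Within a region the members differed widely in level, compared here per kilobase of exon. In Nestin-Cre WT STR, Pde1b led with 543.7 ± 59.8 cpm per kb (mean ± SD, n = 6), followed by Pde10a with 216 ± 22.0 and Pde2a with 216 ± 21.7, which did not differ beyond their spread. Pde7b had 71.6 ± 4.63, Pde4b 32.9 ± 3.66, Pde8b 30.9 ± 2.29, Pde1a 16.1 ± 6.46, Pde4d 8.23 ± 0.688 and Pde1c 3.05 ± 1.02 cpm per kb. Pde4b and Pde8b lay within each other's spread. In Nestin-Cre WT PFC the order began with Pde2a at 135 ± 6.21, Pde1b at 70.8 ± 13.5 and Pde1a at 51.3 ± 5.40 cpm per kb (n = 8), and Pde8b at 19.2 ± 1.88 and Pde10a at 18.8 ± 4.75 could not be separated. In Nestin-Cre WT SN it began with Pde1b at 35.9 ± 2.20, Pde2a at 28.7 ± 4.39 and Pde4b at 24.1 ± 2.90 cpm per kb (n = 6). Pde1c was lowest per kb in all 6 WT groups of model and region.

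The first question was where each gene is expressed. Seen over WT libraries, STR stood above PFC for 7 of the 9 members and below it for 2, in both models. The share of all 15318 tested genes called in each direction was 35.3% higher and 35% lower in the Nestin-Cre model, and 31.7% higher and 29.6% lower in the AAV-Cre model. A gene was called at an adjusted p under 0.1 in edgeR, and with so many genes called the count of members says little; the sizes of the differences are what follows. In bulk tissue, fewer cells of a type and less RNA per cell cannot be told apart.

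Among the enzymes that hydrolyse both cyclic nucleotides, Pde10a showed the widest contrast between regions. In Nestin-Cre WT mice it had 108 to 235 cpm in PFC (median 151), 1627 to 2089 cpm in STR (median 1754) and 30.6 to 47.4 cpm in SN (median 35.5). In AAV-Cre WT mice it had 175 to 416 cpm in PFC (median 244), 1710.5 to 2257 cpm in STR (median 1976) and 55.2 to 206 cpm in SN (median 59.5). Every STR library lay above every PFC and SN library. The log2 difference of STR from PFC was 3.51 ± 0.23 in Nestin-Cre mice (edgeR adjusted p = 8.58e-17, higher in 6 of 6) and 2.82 ± 0.23 in AAV-Cre mice (adjusted p = 1.01e-13, higher in 7 of 7).

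Pde1b, a calmodulin-activated enzyme, followed the same order. Its Nestin-Cre WT levels were 199 to 357 cpm in PFC (median 247), 1624 to 2234 cpm in STR (median 1991) and 123 to 142 cpm in SN (median 132). Its AAV-Cre WT levels were 275 to 521 cpm in PFC (median 343), 1474 to 1970.5 cpm in STR (median 1737) and 141 to 339.8 cpm in SN (median 179). STR and the other regions again did not overlap. STR exceeded PFC by a log2 difference of 2.93 ± 0.15 (edgeR adjusted p = 3.41e-20, 6 of 6 libraries) and 2.19 ± 0.15 (adjusted p = 3.82e-16, 7 of 7).

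The other calmodulin-activated genes ran in opposite directions. Pde1a was the member with the clearest cortical bias: 212 to 283 cpm in Nestin-Cre WT PFC (median 257) and 38.7 to 126 cpm in STR (median 79.7), a log2 difference of -1.68 ± 0.25 (edgeR adjusted p = 2.41e-07). In AAV-Cre WT mice it was 137 to 253 cpm in PFC (median 193) and 36.6 to 59.3 cpm in STR (median 51.5), a difference of -1.89 ± 0.25 (adjusted p = 1.93e-08). Pde1c, the least abundant member per kb, was higher in STR by 1.46 ± 0.16 and 1.66 ± 0.16 in the 2 models.

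Pde2a, the cGMP-stimulated enzyme, was abundant in both forebrain regions and low in SN. Its WT medians in the Nestin-Cre model were 631 cpm in PFC, 1034 cpm in STR and 137 cpm in SN. STR exceeded PFC by a log2 difference of 0.67 ± 0.08 for Nestin-Cre and 0.44 ± 0.08 for AAV-Cre mice.

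Of the cAMP-specific enzymes, Pde7b had the pattern of Pde10a. It had 41.1 to 72.5 cpm in Nestin-Cre WT PFC (median 59.4), 370.0 to 444 cpm in STR (median 388) and 17.0 to 25.0 cpm in SN (median 21.4). In AAV-Cre WT mice the ranges were 65.4 to 102 cpm in PFC (median 80.7), 346 to 449 cpm in STR (median 405) and 17.1 to 43.7 cpm in SN (median 23.4). No STR library reached down to another region. STR exceeded PFC by 2.73 ± 0.14 (edgeR adjusted p = 3.37e-20) and 2.25 ± 0.14 (adjusted p = 2.68e-17) on the log2 scale.

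Pde8b, a high-affinity cAMP enzyme, rose from SN through PFC to STR with Nestin-Cre WT medians of 35.8, 97.2 and 161 cpm. The PDE4 genes, whose enzymes are the targets of rolipram, varied least between regions. Pde4b was higher in STR than PFC by 0.27 ± 0.07 and 0.44 ± 0.07 on the log2 scale. Pde4d went the other way, lower in STR than PFC by -0.68 ± 0.08 in each model, and its Nestin-Cre WT medians were 91.8 cpm in PFC, 55.9 cpm in STR and 77.1 cpm in SN.

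SN compared with STR gave 1 member higher (Pde4d) and 8 lower in the Nestin-Cre model, where 39.4% of all tested genes were higher and 39% lower. The AAV-Cre model gave 1 higher (Pde4d) and 7 lower, with 35.4% and 36.8% of all genes, and Pde1a was not called there (log2 difference -0.01 ± 0.24). Pde10a had the lowest value against STR, -5.59 ± 0.28 in Nestin-Cre mice and -4.61 ± 0.25 in AAV-Cre mice (-5.02 ± 0.19 without A_SN_WT_3587). SN compared with PFC gave 0 members higher and 8 lower in the Nestin-Cre model in edgeR. There 38.8% and 41.5% of all genes were called, and Pde1c was the member not called. In the AAV-Cre model 2 were higher (Pde1c and Pde4d) and 6 lower, with 33.5% and 37.1% of all genes called, and Pde4b was not called. With mouse as a replicate block, the members called were 9, 9 and 8 in the Nestin-Cre model and 9, 8 and 9 in the AAV-Cre model for STR against PFC, SN against STR and SN against PFC. That fit called 70.1%, 79.5% and 80.2% of all genes in the first model and 65.6%, 75.5% and 74% in the second. The gain was Pde4b in AAV-Cre SN against PFC (-0.11 ± 0.06, adjusted p = 0.0971).

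**Figure D1:**
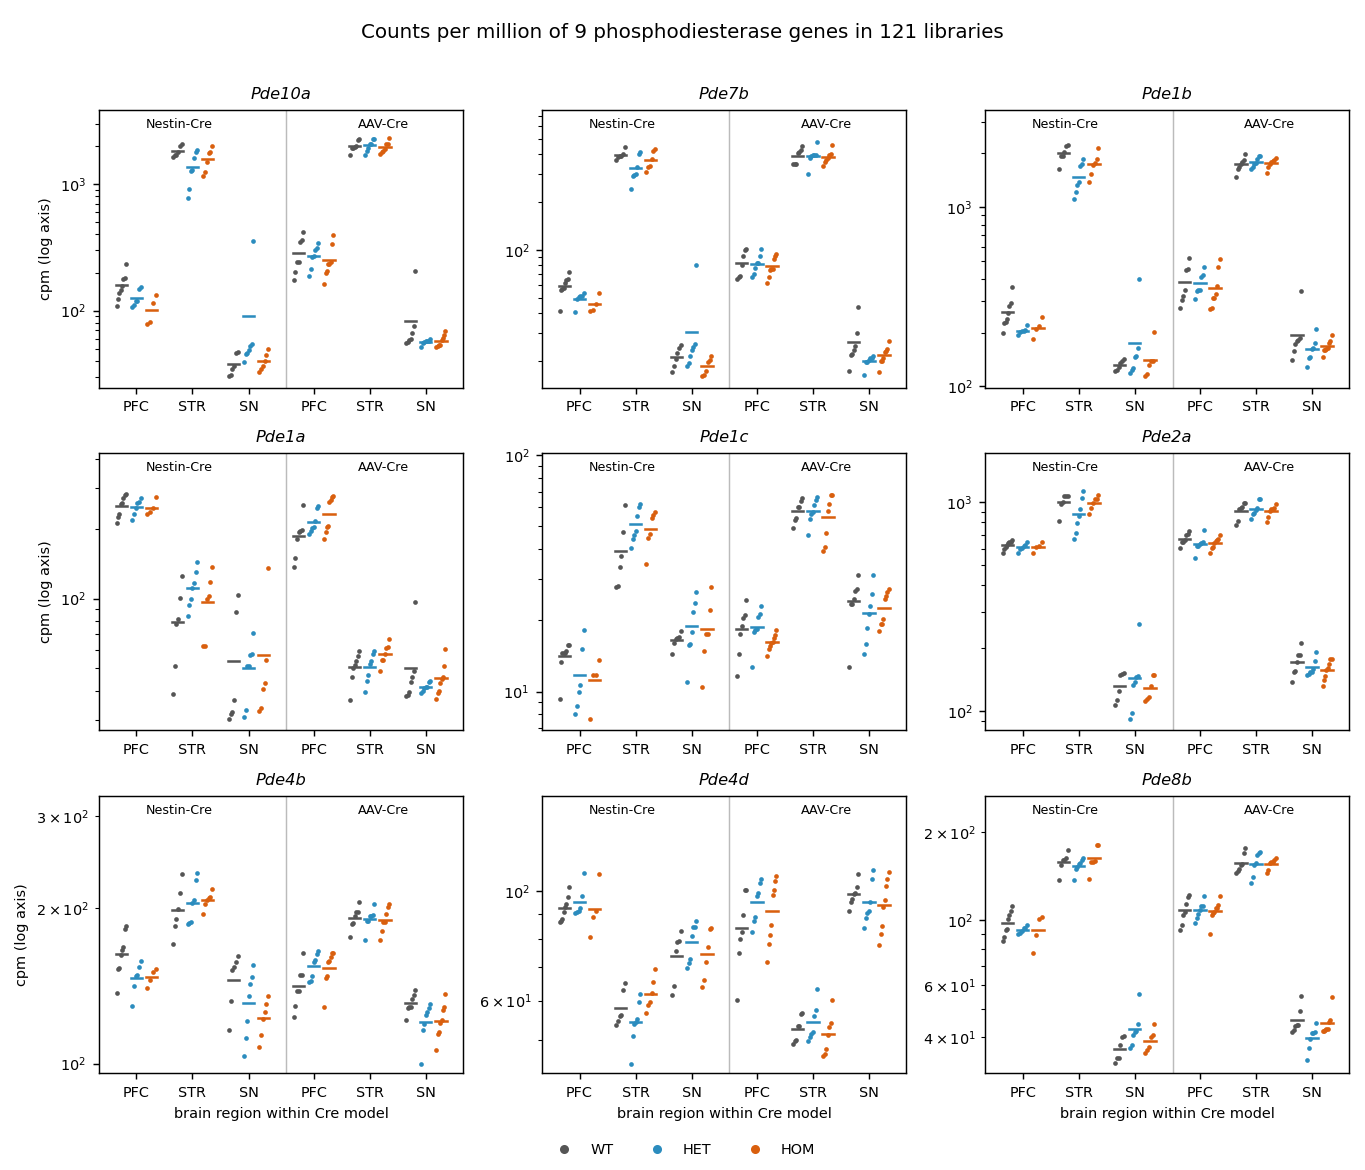
Cpm (log axis) of the 9 members in every library, by brain region (PFC, STR, SN) within each Cre model; each point is 1 library, coloured by genotype, and each horizontal line is the group mean. Pde10a, Pde7b and Pde1b have their highest values in STR, and 1 HET library of Nestin-Cre SN stands at 354 cpm for Pde10a.

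Other genes of the cyclic nucleotide pathway were called in both directions between Nestin-Cre WT STR and PFC, as were all tested genes (35.3% higher and 35% lower). Of 15 other phosphodiesterases, 10 were tested; 3 were higher and 5 lower in Nestin-Cre WT STR than PFC. Adcy5, the main adenylyl cyclase of striatal projection neurons, was higher by 2.82 ± 0.14, while the calmodulin-stimulated cyclases Adcy1 and Adcy8 were lower by -1.92 ± 0.11 and -1.91 ± 0.12. Of 9 tested adenylyl cyclases, 2 were higher and 7 lower. Gnal, whose protein couples D1 receptors to the cyclase, was higher by 1.76 ± 0.09, and Gnas, its relative elsewhere in the brain, was lower by -1.32 ± 0.06. Among 18 targets of cyclic nucleotides, 5 were higher and 11 lower, led by Ppp1r1b (DARPP-32) at 3.96 ± 0.28 and Arpp21 at 2.04 ± 0.16. Both are substrates of protein kinase A. No gene of the 6 lists of other phosphodiesterases, cyclases, G protein alpha subunits, cyclic nucleotide targets and calmodulins was called in any of the 12 genotype comparisons.

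Patterns over the 18 groups of model, region and genotype were compared by the Pearson correlation of mean log2 cpm across 15672 genes. These correlations describe 18 group means that share 3 regions and carry no test. Pde10a was most like Pde7b (r = 0.996), Ppp1r1b (0.995) and Tbc1d8 (0.995). Pde7b was also close to Il20ra, Ppp1r1b and Gm10754, each at 0.997, and Pde1b to Adcy5 (0.998), Rem2 (0.998) and Foxo1 (0.997). Pde2a was most like Fbxl16 (0.999), Wscd2 (0.998) and Cttnbp2 (0.997), and Pde8b was most like Cpne5, Lmo7 and Phactr1, each at 0.998. Pde1a was most like Ak5 (0.987), Hs3st2 (0.985) and Zfp661 (0.984), and Pde1c like Sytl5 (0.986), Tacr1 (0.985) and BC055324 (0.984). Pde4b was most like Kdm4c (0.978), Kcnd2 and Mlh3 (each 0.976), and Pde4d like Bri3bp (0.983), Rangap1 (0.982) and Ywhag (0.977). Among members the lowest value was -0.875, between Pde1c and Pde4d.

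The promoters of Pde10a, Pde7b and Pde1b are shown because these genes moved together across regions. All 9 members matched the RefSeq promoter table (build GRCm38.p6), with 28 start sites in all. For each of the 3 genes the 250 bases before its most upstream start in that table were searched on both strands for the cAMP response element TGACGTCA, its core TGACG, which lies within it, and the GC box GGGCGG. The windows of Pde10a and Pde7b lie inside the span of their gene in the count table, clear of its exons, because that table starts each gene further upstream. Capitals mark the GC box or its reverse complement.
Pde10a, chr17:8801495-8801744, plus strand: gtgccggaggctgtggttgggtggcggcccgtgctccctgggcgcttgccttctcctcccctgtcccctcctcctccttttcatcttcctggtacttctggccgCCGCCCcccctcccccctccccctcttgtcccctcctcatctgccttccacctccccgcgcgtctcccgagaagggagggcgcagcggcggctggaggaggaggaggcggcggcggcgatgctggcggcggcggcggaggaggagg
Pde7b, chr10:20548329-20548578, minus strand: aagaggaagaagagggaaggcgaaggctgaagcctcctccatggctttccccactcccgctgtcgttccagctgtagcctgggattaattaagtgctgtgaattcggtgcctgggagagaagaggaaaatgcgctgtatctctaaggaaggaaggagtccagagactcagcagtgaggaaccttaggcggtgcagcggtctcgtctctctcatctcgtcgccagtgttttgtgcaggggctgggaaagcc
Pde1b, chr15:103502784-103503033, plus strand: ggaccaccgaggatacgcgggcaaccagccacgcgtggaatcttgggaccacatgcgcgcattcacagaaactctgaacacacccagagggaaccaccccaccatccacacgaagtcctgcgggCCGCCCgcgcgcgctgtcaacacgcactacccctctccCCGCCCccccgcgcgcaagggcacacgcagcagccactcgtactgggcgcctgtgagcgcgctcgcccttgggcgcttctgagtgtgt
The element TGACGTCA was in 0 of the 28 member windows and in 1.55% of all 32851 windows of this length. Its core TGACG was in 2 member windows, of Pde1a and Pde4b, and in 17.8% of all. The GC box was in 5 member windows and in 32.7% of all; the printed windows hold 1 for Pde10a, 0 for Pde7b and 2 for Pde1b. A match of letters is a description of the window and shows no binding.

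WT libraries of the models were compared next. In PFC, 4 members were higher in AAV-Cre than Nestin-Cre mice (Pde1b, Pde1c, Pde7b and Pde10a) and 1 lower (Pde4b), where 20.2% of all tested genes were higher and 20.9% lower. Pde10a differed by 0.85 ± 0.21 on the log2 scale (edgeR adjusted p = 0.00172, 7 of 7 libraries above the Nestin-Cre mean), Pde1b by 0.55 ± 0.14 (adjusted p = 0.00173, 7 of 7) and Pde7b by 0.47 ± 0.13 (adjusted p = 0.00466, 7 of 7), and the ranges of the models overlapped for each. Striatal projection neuron markers moved with them: 18 of 22 were higher in AAV-Cre PFC and 0 lower, with a median of 0.64 against 0.01 over all genes. Their summed level was 1078 to 2087 cpm in Nestin-Cre WT PFC (median 1385) and 1470.5 to 3313 cpm in AAV-Cre WT PFC (median 1839). Their most abundant gene per kb was Penk in the first and Ppp1r1b in the second, and no marker of the list was at 0 in every library. Of these 22 markers, 8 were picked by the study from these samples. When WT PFC was fitted alone with the striatal marker index as a covariate (a fit added once the data had been seen), Pde10a stood at 0.20 ± 0.11 (adjusted p = 0.197), Pde7b at 0.13 ± 0.10, Pde1b at 0.07 ± 0.07 and Pde1c at 0.08 ± 0.16. The fit of WT PFC alone without the index called 8 members, with 46.9% of all genes. None of these 4 was called with the index, where 26.6% of all genes were; the 2 members called were Pde4b and Pde1a (-0.35 ± 0.13, adjusted p = 0.0739).

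In STR, 1 member was higher in AAV-Cre than Nestin-Cre WT mice (Pde1c, 0.58 ± 0.16) and 1 lower (Pde1a, -0.64 ± 0.25), where 30.6% and 29.1% of all genes were called. With STR libraries alone in the fit, Pde1b (-0.18 ± 0.08, edgeR adjusted p = 0.0661) and Pde10a (0.17 ± 0.08, adjusted p = 0.0822) were called as well. That fit called most of all tested genes. The cortical gene Slc17a7 averaged 104 ± 100 cpm (SD) in Nestin-Cre WT STR and 25.1 ± 15.2 cpm in AAV-Cre WT STR. Its relation to the lower Pde1a was not tested. In SN, 7 members were higher and 1 lower (Pde4b), where 34.4% and 28.3% of all genes were called. Pde10a had 30.6 to 47.4 cpm in Nestin-Cre and 55.2 to 206 cpm in AAV-Cre SN, without overlap, and differed by 1.14 ± 0.23 (edgeR adjusted p = 6.73e-05). Without library A_SN_WT_3587 the Pde10a difference was 0.72 ± 0.17 (adjusted p = 0.000344) and Pde7b, at 0.31 ± 0.15 with that library, was 0.13 ± 0.13 and no longer called. Pde4d and Pde8b also separated the models in SN without overlap, with differences of 0.43 ± 0.08 and 0.33 ± 0.08.

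The central comparison was genotype. HET and HOM mice of a region share the same WT controls, so their values are given side by side and are not independent of each other. The members' counts below are of 9, from edgeR at an adjusted p under 0.1. The study picked Pde1b, Pde7b and Pde10a from these samples, so their direction in PFC is not independent evidence. Its supplement lists Pde7b and Pde10a as differentially expressed in Nestin-Cre HOM PFC, whereas the quasi-likelihood test here called neither. The reason for these unlike calls was not tested.

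In Nestin-Cre PFC, 0 members were called in HET, where 0% of 14386 genes were called, and 0 in HOM, where 0.25% were. Pde10a had 108 to 235 cpm in WT (median 151), 107 to 154 cpm in HET (median 119), and 78.8, 80.8, 115 and 133 cpm in the HOM libraries. All 6 HET and all 4 HOM libraries lay below the WT mean, and the ranges overlapped. The log2 difference was -0.33 ± 0.15 in HET (edgeR adjusted p = 0.494) and -0.63 ± 0.18 in HOM (adjusted p = 0.173).

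Pde7b had 41.1 to 72.5 cpm in WT (median 59.4), 40.3 to 53.4 cpm in HET (median 50.7), and 41.0, 41.9, 45.6 and 53.6 cpm in HOM. Pde1b had 199 to 357 cpm in WT (median 247), 194 to 219 cpm in HET (median 204), and 184, 209, 216 and 244 cpm in HOM. For both genes all HET and HOM libraries were again under the WT mean, with overlap. The log2 differences of Pde7b were -0.27 ± 0.10 in HET (edgeR adjusted p = 0.361) and -0.38 ± 0.11 in HOM (adjusted p = 0.201), and those of Pde1b were -0.33 ± 0.10 (adjusted p = 0.247) and -0.28 ± 0.11 (adjusted p = 0.384). At an unadjusted p under 0.05, 4 members were lower in HET (these 3 and Pde4b) and 3 in HOM, with 9.72% and 10.1% of all genes there in either direction. DESeq2 called 1 member in HET and 2 in HOM, with 0.806% and 1.58% of all genes. The edgeR likelihood ratio test called 3 and 3, with 2.88% and 2.15%. Without library N_PFC_WT_4575, whose mouse carries both labels, Pde1b was called in HET (-0.38 ± 0.09, adjusted p = 0.0845), as were 0.634% of all genes. The median over the members was -0.15 in HET and -0.14 in HOM, against -0.00 over all genes in each.

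Striatal markers had lower averages in the HET and HOM libraries of Nestin-Cre PFC. The index of 22 markers averaged 4.82 ± 0.33 (SD) in WT, 4.17 ± 0.33 in HET and 4.22 ± 0.39 in HOM, and the summed level had medians of 1385, 999 and 1054 cpm. Of the 21 markers tested, 0 were called in either genotype, with medians of -0.68 and -0.55. The most abundant per kb in WT, Penk, averaged 151, 92.9 and 98.8 cpm. With the index as a covariate, Pde10a was 0.19 ± 0.12 in HET and -0.18 ± 0.13 in HOM, and Pde7b -0.04 ± 0.11 and -0.17 ± 0.12. Pde1b was -0.02 ± 0.09 and 0.00 ± 0.09. The part of striatal RNA in the differences was not tested further. In HOM PFC, 3 of 15 oligodendrocyte markers were called lower (Gjb1, Fa2h and Myrf), where 0.25% of all genes were called. The median of these 15 markers was -0.43, and no other list had a called gene in a genotype comparison.

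The relation with the index was followed over single PFC libraries of all genotypes, 18 of Nestin-Cre and 22 of AAV-Cre mice, in a family of 36 permutation tests. In Nestin-Cre PFC, Pde10a had r = 0.83 (permutation p = 4e-05, adjusted p = 0.00016) and rho = 0.816 (adjusted p = 0.000288), and r = 0.804 once the 2 libraries with the most extreme index were left out. In AAV-Cre PFC it had r = 0.955 (permutation p = 1e-05, the lowest value possible here, adjusted p = 5.14e-05) and rho = 0.963, and r = 0.937 with the 2 most extreme left out. Within genotypes the Pde10a r was 0.827 in Nestin-Cre WT and 0.769 in HET, and 0.960, 0.891 and 0.980 in AAV-Cre WT, HET and HOM; 4 Nestin-Cre HOM libraries were too few. The exact permutation p of these r, not adjusted, was 0.013, 0.0639, 0.00258, 0.000794 and 0.000174 in that order. In Nestin-Cre HET, with 6 libraries, r was 0.602 in the 4 left without the 2 farthest.

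Pde1b and Pde7b followed the index in both models as well. Pde1b had r = 0.874 and rho = 0.853 in Nestin-Cre and r = 0.963 and rho = 0.951 in AAV-Cre PFC, with permutation adjusted p of 5.14e-05 for each r. Without the 2 farthest libraries r was 0.886 and 0.950. Within Nestin-Cre genotypes it was 0.937 in WT and 0.228 in HET, and within AAV-Cre genotypes 0.962, 0.910 and 0.990 (exact permutation p, not adjusted, 0.000645 and 0.682, and 0.00298, 0.00675 and 4.96e-05). The Nestin-Cre HET value was 0.942 in the 4 libraries left without the 2 farthest. Pde7b had r = 0.756 and rho = 0.777 (r permutation adjusted p = 0.000849), with r = 0.773 without the 2 farthest, and 0.619 in WT and 0.329 in HET (exact p 0.101 and 0.465; HET 0.753 without the 2 farthest). In AAV-Cre PFC Pde7b had r = 0.855 and rho = 0.875 (adjusted p = 5.14e-05), with 0.824 without the 2 farthest, and 0.928, 0.702 and 0.861 in WT, HET and HOM (exact p 0.0141, 0.0853 and 0.00583).

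Of the rest, Pde8b had r = 0.706 and 0.731 in the 2 models (permutation adjusted p = 0.00223 and 0.000295), and Pde1c 0.530 and 0.606 (0.0371 and 0.00592). Pde4b had r = 0.610 in Nestin-Cre but 0.131 in AAV-Cre PFC (permutation adjusted p = 0.0124 and 0.613), while Pde2a had 0.289 and 0.646 (0.315 and 0.00234). Pde1a had 0.0761 and -0.412 (0.765 and 0.0785) and was thus called in AAV-Cre PFC at the threshold of 0.1. Pde4d had -0.187 and -0.301 (0.533 and 0.229). Within Nestin-Cre WT and HET, r was 0.864 and 0.0747 for Pde8b (exact permutation p, not adjusted, 0.00662 and 0.896), 0.306 and 0.613 for Pde1c (0.468 and 0.193), and 0.517 and 0.00874 for Pde4b (0.189 and 0.99). Within AAV-Cre WT, HET and HOM it was 0.749, 0.713 and 0.744 for Pde8b (exact p 0.073, 0.0692 and 0.0267), 0.7999, 0.559 and 0.236 for Pde1c (0.027, 0.171 and 0.571), and 0.805, 0.626 and 0.719 for Pde2a (0.0442, 0.104 and 0.0468). The other within-genotype r, in the same order, were 0.102 and -0.0308 for Pde2a, 0.306 and -0.382 for Pde1a, and -0.249 and 0.247 for Pde4d in the Nestin-Cre model. In the AAV-Cre model they were 0.403, 0.000516 and 0.013 for Pde4b, -0.356, -0.279 and -0.528 for Pde1a, and -0.783, -0.701 and 0.387 for Pde4d. The exact p was 0.0286, 0.098 and 0.342 for Pde4d in AAV-Cre mice, and above 0.1 for the rest of these.

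Without the 2 farthest libraries of a genotype, the sign of r turned in 7 of these cases. In Nestin-Cre HET it went to -0.559 for Pde8b, -0.666 for Pde4b and 0.392 for Pde2a, and in Nestin-Cre WT to 0.317 for Pde4d. In AAV-Cre HOM it went to -0.432 for Pde1c, 0.515 for Pde1a and -0.277 for Pde4d. The difference between the models' correlations was not tested.

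**Figure D2:**
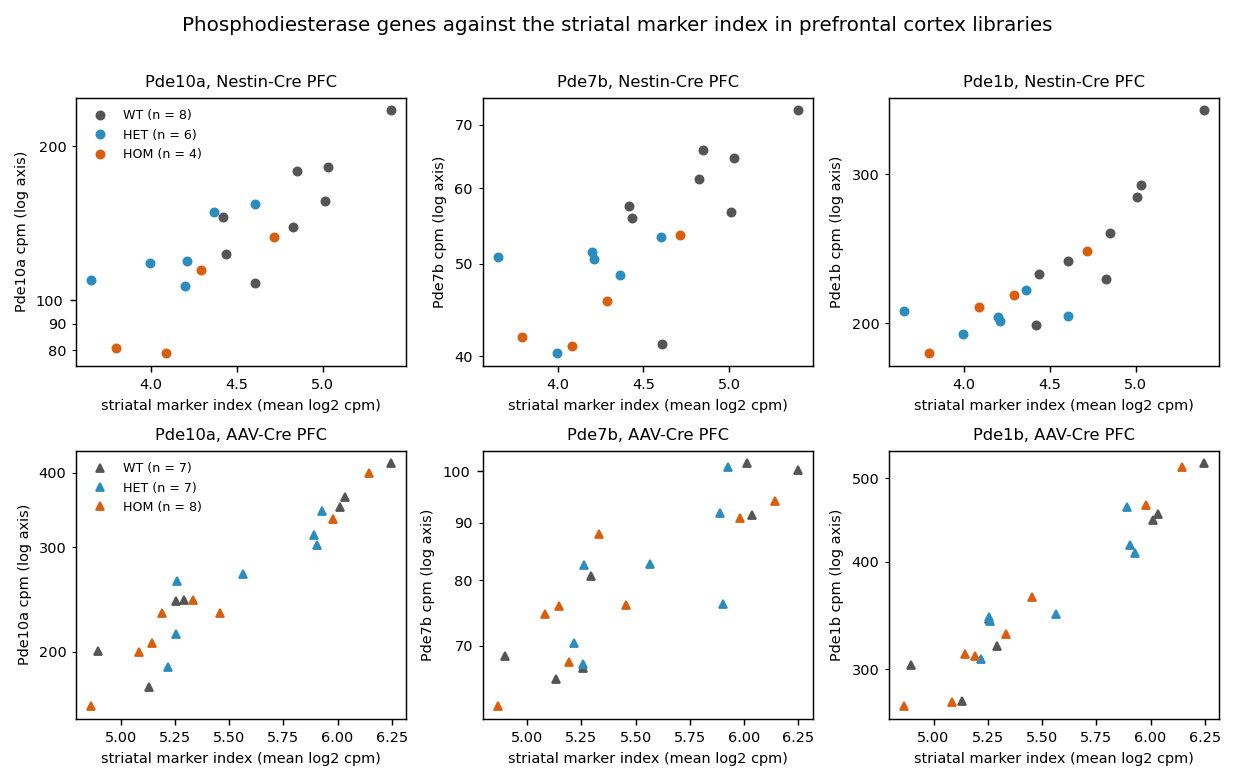
Cpm of Pde10a, Pde7b and Pde1b (log axis) against the striatal marker index (mean log2 cpm of 22 markers, 0.5 cpm added) in PFC libraries of the Nestin-Cre model (top) and AAV-Cre model (bottom); each point is 1 library, coloured by genotype. All 3 genes rise with the index in both models, with r of 0.83 and 0.955 for Pde10a.

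In Nestin-Cre STR, 0 members were called in HET and 0 in HOM, with 0% of 14494 genes called in each. Pde1b had 1624 to 2234 cpm in WT (median 1991), 1105 to 1850.4 cpm in HET (median 1373) and 1381 to 2125 cpm in HOM (median 1751). Pde10a had 1627 to 2089 cpm in WT (median 1754), 774 to 1872 cpm in HET (median 1305) and 1170.2 to 1992 cpm in HOM (median 1632). The HET libraries reached lowest for both genes, and HET and WT overlapped. The HET difference was -0.43 ± 0.12 for Pde1b (edgeR adjusted p = 0.175, 7 of 7 below the WT mean) and -0.41 ± 0.18 for Pde10a (adjusted p = 0.255, 6 of 7). At an unadjusted p under 0.05, HET had 2 members higher (Pde1a and Pde1c) and 3 lower (Pde1b, Pde7b and Pde10a), and HOM 0, with 17.3% and 4.62% of all genes there. DESeq2 called 1 member in HET (Pde1b) and 0 in HOM, with 3.69% and 0.0069% of all genes, and the likelihood ratio test 4 and 0, with 8.57% and 1.91%. Striatal markers had lower averages in HET here too: the index averaged 8.47 ± 0.11 in WT and 8.11 ± 0.26 in HET, the summed level had medians of 17196 and 11814 cpm, and 0 of 22 markers were called, with a median of -0.41. Cortical excitatory markers had a median of -0.69 with 0 of 12 called. Whether these shifts share a source was not tested.

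In Nestin-Cre SN, 0 members were called in HET and 0 in HOM, with 0% of 14873 genes called in each. Pde10a had 30.6 to 47.4 cpm in WT (median 35.5), 39.1 to 354 cpm in HET (median 49.0) and 32.9 to 50.2 cpm in HOM (median 38.3). The value of 354 cpm belongs to library N_SN_HET_4566, whose striatal markers stood apart, and the next HET library had 54.5 cpm. The HET difference was 1.27 ± 0.43 (edgeR adjusted p = 0.518) with that library and 0.34 ± 0.12 (adjusted p = 0.494) without it. Pde7b went from 0.51 ± 0.27 to 0.05 ± 0.11, Pde1b from 0.40 ± 0.22 to 0.06 ± 0.11, and Pde2a from 0.12 ± 0.18 to -0.08 ± 0.13. At an unadjusted p under 0.05, HET had 2 members higher (Pde8b and Pde10a) and HOM 1 lower (Pde4b, -0.24 ± 0.10), with 8.99% and 4.09% of all genes there. Without N_SN_HET_4566, HET had 1 (Pde10a), with 9.53%. DESeq2 called 0 in each, with 0.0336% and 0.00672% of all genes, and the likelihood ratio test 1 in HET and 0 in HOM, with 2.23% and 0.8%. Pde1a in HOM was 0.08 ± 0.38 with library N_SN_HOM_4575 and -0.41 ± 0.33 without it.

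In AAV-Cre PFC, 0 members were called in HET, where 0% of 14628 genes were called, and 0 in HOM, where 0.0137% were. Pde10a had 175 to 416 cpm in WT (median 244), 189 to 345 cpm in HET (median 269.9) and 162 to 399.7 cpm in HOM (median 233), with differences of -0.07 ± 0.19 and -0.19 ± 0.19. Pde1a had 137 to 253 cpm in WT (median 193), 189.5 to 252 cpm in HET (median 204) and 181 to 276 cpm in HOM (median 233). The genotypes overlapped for both. The HOM difference of Pde1a was 0.31 ± 0.11 (edgeR adjusted p = 0.249). It was the 1 member at an unadjusted p under 0.05 in HOM, where 14.2% of all genes were, and HET had 0, with 12.3%. DESeq2 and the likelihood ratio test each called 1 member in HOM (Pde1a), with 1.26% and 2.93% of all genes. Each called 0 in HET, with 0.041% and 1.7%.

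In AAV-Cre STR, the injected region, 0 members were called in HET and 0 in HOM, with 0% of 14655 genes called in each. Pde10a had 1710.5 to 2257 cpm in WT (median 1976), 1701 to 2266 cpm in HET (median 2074) and 1716 to 2316 cpm in HOM (median 1912). Pde1b had 1474 to 1970.5 cpm in WT (median 1737), 1634 to 1941 cpm in HET (median 1755) and 1548 to 1885 cpm in HOM (median 1790.1). The 3 genotypes covered nearly the same range for each gene. Differences were 0.01 ± 0.07 and -0.04 ± 0.07 for Pde10a, 0.04 ± 0.06 and 0.02 ± 0.06 for Pde1b, and 0.00 ± 0.08 and -0.02 ± 0.08 for Pde7b. At an unadjusted p under 0.05 there were 0 members in either genotype in edgeR, with 1.71% of all genes in HET and 4.58% in HOM. DESeq2 called 0 members in each, with 0% and 0.0341% of all genes, and so did the likelihood ratio test, with 0.382% and 1.19%.

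In AAV-Cre SN, 0 members were called in HET and 0 in HOM, with 0% of 14813 genes called in each. Pde10a had 55.2 to 206 cpm in WT (median 59.5), 51.5 to 59.3 cpm in HET (median 57.3) and 51.6 to 68.6 cpm in HOM (median 55.9). The WT value of 206 cpm is library A_SN_WT_3587, whose striatal markers stood apart. With it the differences were -0.54 ± 0.22 in HET (edgeR adjusted p = 0.946) and -0.51 ± 0.21 in HOM (adjusted p = 0.636); without it they were -0.12 ± 0.07 (adjusted p = 0.999) and -0.09 ± 0.07 (adjusted p = 0.821). Pde7b in HET moved from -0.39 ± 0.14 to -0.21 ± 0.11. At an unadjusted p under 0.05, 3 members were lower in HET (Pde7b, Pde8b and Pde10a) and 1 in HOM (Pde10a), with 4.69% and 7.49% of all genes there. Without A_SN_WT_3587 there were 1 (Pde8b) and 0, with 3.14% and 6.44%. DESeq2 called 0 in each, with 0.00675% and 0.0675% of all genes, and the likelihood ratio test 3 and 1, with 2.19% and 1.47%.

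Whether a genotype difference itself varied was tested with interaction terms. Between STR and PFC, 0 members were called for HET and for HOM in the Nestin-Cre model and for HET and for HOM in the AAV-Cre model, with 0%, 0%, 0% and 0% of all tested genes called. Pde1c was the member at an unadjusted p under 0.05, in the Nestin-Cre model, with STR minus PFC values of 0.62 ± 0.25 for HET (edgeR adjusted p = 0.694) and 0.66 ± 0.28 for HOM (adjusted p = 0.994). Of all genes, 6.31% and 3.02% were at that p for these HET and HOM tests. There were 0 such members in the AAV-Cre model, with 4.18% and 4.19% of all genes, and DESeq2 called 0 in all 4, with 0.0134%, 0%, 0% and 0.00663% of all genes. With mouse as a replicate block, 0 members were called in these 4 tests, with 0.0135%, 0%, 0% and 0%. That block fit left out N_PFC_WT_4575 and N_STR_HOM_4575 in the Nestin-Cre model. Pde10a had -0.10 ± 0.24 for HET and 0.44 ± 0.27 for HOM in the Nestin-Cre model.

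Between the models, 0 members were called in PFC for HET, where 0.678% of all genes were called, and 0 for HOM, where 3.54% were. Pde4b had Nestin-Cre minus AAV-Cre values of -0.27 ± 0.09 (edgeR adjusted p = 0.164) and -0.26 ± 0.09 (adjusted p = 0.146), and was the member at an unadjusted p under 0.05 for HET; for HOM there were 2, with Pde1a. Of all genes, 14.8% and 16.6% were at that p. DESeq2 called 1 member for HET (Pde4b) and 0 for HOM, with 2.01% and 4.85% of all genes. Pde10a had -0.25 ± 0.26 and -0.46 ± 0.28. With the index as a covariate the Pde10a values were 0.29 ± 0.12 for HET, where the sign turned, and -0.09 ± 0.12 for HOM.

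In STR, 0 members were called between the models for HET, where 0.00673% of all genes were called, and 0 for HOM, where 0.0202% were. Pde1b had -0.48 ± 0.13 for HET (edgeR adjusted p = 0.201), and with Pde10a it made 2 members at an unadjusted p under 0.05; HOM had 0. Of all genes, 15.5% and 6.67% were at that p. DESeq2 called 1 for HET (Pde1b) and 0 for HOM, with 1.58% and 0.0202% of all genes. In SN, 0 members were called for HET and 0 for HOM, with 0% and 0% of all genes called. At an unadjusted p under 0.05 HET had 4 members (Pde1b, Pde7b, Pde8b and Pde10a) and HOM 0, with 14% and 3.32% of all genes there, and DESeq2 called 0, with 0.106% and 0%. Without N_SN_HET_4566, HET had 3 (Pde7b, Pde8b and Pde10a) and HOM 1 (Pde10a), with 14.6% and 3.45%; without A_SN_WT_3587 HET had the same 3 and HOM 0, with 12.4% and 2.62%. The Pde10a HET value was 1.79 ± 0.49 (adjusted p = 0.288); it was 0.87 ± 0.27 without N_SN_HET_4566 and 1.38 ± 0.44 without A_SN_WT_3587.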

How the data were processed

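RNA from prefrontal cortex, striatum and substantia nigra of 43 mice gave 56 Nestin-Cre and 65 AAV-Cre libraries, sequenced as 75-base single-end reads. The authors made base calls with bcl2fastq 2.20.0.422, aligned reads to mm10 with STAR 2.5.2b and counted them per gene with featureCounts 1.5.1. The strand setting of the counting was not stated. The deposited unit is the count of reads per gene and library. Genes were matched to members by exact symbol, and members and marker lists were chosen with earlier results of these data known.

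A gene was tested if 3 or more libraries of a fit reached 1 cpm, for this filter the count divided by the unscaled library total. Tests were run with edgeR 4.0.16 (TMM scaling, trended dispersion, quasi-likelihood F test, 2-sided) under R 4.3.3, with Benjamini-Hochberg adjustment over all tested genes and a threshold of 0.1. The standard error was the log2 difference divided by the square root of F. Each genotype comparison used the libraries of its model and region. WT regions and models came from 1 fit of all WT libraries, and interactions from fits of the groups involved. Cpm values used TMM-scaled totals over all libraries. Correlations used 100000 permutations, 2-sided, and all orders were enumerated within a genotype (exact).

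Alternatives were DESeq2 1.42.0, the edgeR likelihood ratio test, DESeq2 size factors, no filter, a threshold of 0.05 and other sets of fitted libraries. Mouse as a replicate block (a term for each mouse in the edgeR design) and the marker index as a covariate in PFC were also used. Further fits omitted the mouse of N_PFC_WT_4575, whose other libraries are labelled HOM, or each Nestin-Cre HOM PFC library. Chosen after seeing the data were the index covariate in WT PFC alone, omission of N_SN_HET_4566 and A_SN_WT_3587, and omission of N_PFC_WT_4575 from WT comparisons. The fits were also run on simulated data, for which no outcome is reported here. No library was left out of the reported values unless named.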

Additional observations from a re-analysis of the deposited data

Results flagged for a closer look

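Within each group, a member's value was marked when it lay far from the rest of its group, and 16 of 162 checks of a member in a group gave such a value, in 11 libraries. Of these, 5 came from the Nestin-Cre library N_SN_HET_4566. There Pde10a had 354 cpm (other libraries of the group 39.1 to 54.5), Pde1b 398 (120 to 164), Pde7b 80.6 (18.6 to 25.6), Pde2a 260.5 (92.0 to 148) and Pde8b 56.2 (36.8 to 44.3). Another 2 came from the AAV-Cre library A_SN_WT_3587, with Pde10a at 206 cpm (others 55.2 to 75.4) and Pde1b at 339.8 (141 to 186). Striatal markers were high in both libraries.

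The other 9 were single values. In the Nestin-Cre model these were Pde1a at 136 cpm in N_SN_HOM_4575 (others 32.9 to 54.5), Pde1b at 202 in N_SN_HOM_4627 (114 to 139), Pde1c at 9.31 in N_PFC_WT_4609 (13.4 to 15.8), Pde2a at 810.2 in N_STR_WT_4612 (984 to 1072) and Pde7b at 40.3 in N_PFC_HET_4564 (48.7 to 53.4). In AAV-Cre SN they were Pde1a at 96.8 in A_SN_WT_3578 (38.0 to 48.4), Pde1c at 12.7 in A_SN_WT_3576 (23.3 to 31.0), Pde7b at 16.2 in A_SN_HET_3610 (19.6 to 21.4) and Pde8b at 54.6 in A_SN_HOM_3687 (42.1 to 46.0). About 1 in 20 such checks gives a value by chance, so some single values are expected. The cause was not tested.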

How the results depend on the processing

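Of 954 alternative values for genotype comparisons, 925 kept the call, with the same sign or a shift within 1 standard error of the main value. With 0 members called by the quasi-likelihood test, DESeq2 called 1 in Nestin-Cre PFC HET (0.806% of all genes), 2 in PFC HOM (1.58%), 1 in STR HET (3.69%), 1 in AAV-Cre PFC HOM (1.26%), and 1 each in the PFC HET (2.01%) and STR HET (1.58%) differences between models. The likelihood ratio test called 3 in Nestin-Cre PFC HET (2.88%), 3 in PFC HOM (2.15%), 4 in STR HET (8.57%), 1 in SN HET (2.23%), 1 in AAV-Cre PFC HOM (2.93%), 3 in AAV-Cre SN HET (2.19%) and 1 in SN HOM (1.47%). Without N_PFC_WT_4575, 1 was called in Nestin-Cre PFC HET, with 0.634% of all genes. For WT mice of the models, a fit of PFC alone called 8 members where the joint fit called 5, STR alone 4 where it called 2, and SN alone 7 where it called 8 (Pde7b lost), with 46.9%, 61.9% and 62.4% of all genes. Without A_SN_WT_3587, 6 were called in PFC (Pde8b gained) and 7 in SN (Pde7b lost), with 41.1% and 61.4%. With the marker index added to the fit of WT PFC alone, once the data had been seen, 2 were called in place of 8, with 26.6%. At a threshold of 0.05, the models differed in 4 members in WT PFC (Pde1c lost) and 6 in SN (Pde4b and Pde7b lost), with 33.6% and 56.8%. With no filter, Nestin-Cre SN against PFC lost Pde4b (adjusted p = 0.109), with 64.5%. With only unpicked markers in the index, Pde1a in AAV-Cre PFC was no longer called (permutation adjusted p = 0.102). No called direction turned. The cause was not tested.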
